A study of Mus musculus with 7 samples.

Results

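Accessible chromatin was examined at the genes for calcium channels, calcium stores and calcium pumps in sorted β cells, with and without the remodelers CHD3 and CHD4. Members were the listed regions whose gene symbol belongs to the voltage-gated calcium channel subunits (Cacn), ryanodine and IP3 receptors (Ryr, Itpr), store-operated entry genes (Stim, Orai), calcium pumps (Atp2a, Atp2b, Atp2c), the calmodulin kinase family (Camk) and the TRPA, TRPC, TRPM and TRPV channels. The rule used symbols and no measured value. It found 319 regions of 62 genes among 61288 listed regions of 24453 symbols. RefSeq held 81 protein-coding genes whose symbols fit the rule, and the 19 without a listed region, among them Orai1 and Trpv1, are not analysed here.

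ATAC-seq libraries, in which the Tn5 transposase inserts adapters into open chromatin, were made from Tomato-positive β cells sorted from islets of male mice. The 4 Control libraries came from mice that were wild type at both genes (Chd3+/+ and Chd4+/+). The 3 Chd3/4Δβ libraries, labelled Chd3-4Db, came from mice with both genes floxed (Chd3 fl/fl and Chd4 fl/fl). Both groups carried the R26 LSL-tdTomato reporter and MIP-CreERT, a tamoxifen-inducible Cre driven by the mouse insulin promoter, and received tamoxifen from 4 weeks of age, so that deletion and the Tomato label are limited to cells in which that promoter was active. CHD3 and CHD4 are ATPases of the nucleosome remodeling and deacetylase complex, and the comparison asks how open chromatin differs when both are missing from adult β cells. The labels do not say that replicates came from separate animals, and p-values then reflect how far these libraries scatter, part of which may be technical.

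In a β cell, glucose metabolism closes potassium channels, the membrane depolarizes, and voltage-gated calcium channels open, so that calcium entry triggers the release of insulin. The endoplasmic reticulum stores calcium that SERCA pumps take up and that IP3 and ryanodine receptors release, and STIM sensors open Orai channels in the plasma membrane when the store runs low. Plasma membrane pumps export calcium, and calmodulin kinases read its rise.

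Library sizes ranged from 17.6 to 44.0 M counts, with 48.1% to 49.6% of the counts in listed regions. Calls of higher or lower accessibility in Chd3/4Δβ needed a Benjamini-Hochberg adjusted p under 0.05 (edgeR quasi-likelihood test) together with a log2 fold change of 1 or more in either direction. Levels are in CPM, the count of a region divided by the library size in M. Regions assigned to 10 of 10 β-cell markers summed to 988 to 1220 CPM in Control and 491 to 802 CPM in Chd3/4Δβ libraries. The sums were 53.7 to 60.6 against 71.5 to 76.6 CPM for 6 of 6 α-cell markers and 43.3 to 44.7 against 87.3 to 90.0 CPM for 3 of 4 δ-cell markers, Hhex having no listed region. They were 55.7 to 61.4 against 84.2 to 106 CPM for 4 of 4 endothelial markers. Of 6 acinar markers 1 had a listed region (0.589 to 1.03 against 1.9 to 2.11 CPM), of 4 immune markers 1 had (4.45 to 6.53 against 7.71 to 10.6 CPM), and 4 of 5 Schwann and neuronal markers summed to 154 to 166 against 151 to 184 CPM. The part of these shifts in the results was not tested. In sorted bulk cells, a change in every cell and a change in the mix of cells cannot be told apart.

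Promoters are shown first, because several of the largest changes lay at gene starts. RefSeq windows of the 250 bases before a gene start (build GRCm38.p6) were found for 47 of the 62 genes. A listed member region overlapped 22 of them, leaving out Camk2a, whose window was not used. Capitals mark matches to CAGCTG, an E-box read by bHLH factors, and to GGGCGG or its reverse complement CCGCCC, the GC box. The first 4 lay in regions called higher, the fifth in a region called lower, and the last 2 are the open promoters of a β subunit and an L-type pore that moved less.
Atp2b4, chr1:133753748-133753997, minus strand: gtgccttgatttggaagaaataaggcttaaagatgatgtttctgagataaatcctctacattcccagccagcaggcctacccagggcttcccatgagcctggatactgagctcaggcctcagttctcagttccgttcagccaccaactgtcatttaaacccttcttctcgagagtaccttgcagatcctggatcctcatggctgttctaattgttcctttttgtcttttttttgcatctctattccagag
Ryr1, chr7:29125152-29125401, minus strand: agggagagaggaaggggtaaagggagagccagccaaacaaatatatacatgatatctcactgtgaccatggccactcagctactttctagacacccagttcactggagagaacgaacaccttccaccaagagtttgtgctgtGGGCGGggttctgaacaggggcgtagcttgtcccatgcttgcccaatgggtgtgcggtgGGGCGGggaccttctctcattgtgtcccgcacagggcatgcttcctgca
Ryr2, chr13:12106946-12107195, minus strand: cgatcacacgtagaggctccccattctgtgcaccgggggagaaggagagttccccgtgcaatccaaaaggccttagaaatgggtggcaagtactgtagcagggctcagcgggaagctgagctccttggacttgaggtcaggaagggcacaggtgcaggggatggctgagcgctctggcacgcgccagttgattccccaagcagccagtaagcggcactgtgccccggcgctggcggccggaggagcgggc
Cacna2d2, chr9:107399630-107399879, plus strand: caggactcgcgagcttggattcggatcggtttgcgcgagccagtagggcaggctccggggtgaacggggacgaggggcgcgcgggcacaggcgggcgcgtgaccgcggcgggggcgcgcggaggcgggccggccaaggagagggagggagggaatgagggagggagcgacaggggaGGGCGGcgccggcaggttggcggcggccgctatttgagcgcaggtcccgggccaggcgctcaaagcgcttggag
Trpm6, chr19:18749480-18749729, plus strand: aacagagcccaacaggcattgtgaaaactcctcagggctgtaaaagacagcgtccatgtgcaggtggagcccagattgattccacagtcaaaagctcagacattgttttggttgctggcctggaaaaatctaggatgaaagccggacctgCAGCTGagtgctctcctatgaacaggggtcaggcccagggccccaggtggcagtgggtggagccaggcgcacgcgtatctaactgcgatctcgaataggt
Cacnb2, chr2:14604056-14604305, plus strand: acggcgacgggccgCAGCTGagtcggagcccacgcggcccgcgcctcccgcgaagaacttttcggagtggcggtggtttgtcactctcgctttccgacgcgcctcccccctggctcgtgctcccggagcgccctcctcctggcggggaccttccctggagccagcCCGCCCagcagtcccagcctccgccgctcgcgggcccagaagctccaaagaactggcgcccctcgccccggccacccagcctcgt
Cacna1c, chr6:119108496-119108745, minus strand: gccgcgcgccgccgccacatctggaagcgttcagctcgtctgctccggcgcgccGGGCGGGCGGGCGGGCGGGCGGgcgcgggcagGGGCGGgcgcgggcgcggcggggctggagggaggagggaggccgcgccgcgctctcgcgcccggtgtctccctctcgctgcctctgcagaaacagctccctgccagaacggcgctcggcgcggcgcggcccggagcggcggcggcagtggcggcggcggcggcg

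The 7 windows differed in base composition. GC content was 45.6% for Atp2b4, 54.8% for Ryr1, 63.2% for Ryr2, 74.4% for Cacna2d2, 54.4% for Trpm6, 73.2% for Cacnb2 and 82.8% for Cacna1c. The median was 68.4% over the 22 windows and 52.4% over all 32851 windows of this length. On both strands, GGGCGG was found in 14 of the 22 windows and in 32.7% of all windows. CAGCTG was found in 7 of the 22 and in 13% of all, and TAATTA, a core read by homeodomain factors, in 0 of the 22 and in 4.84% of all. The 22 windows were kept because a listed region overlapped them, whereas all windows include those without one. The comparison is therefore not matched for accessibility and does not single out calcium genes. None of the 3 motifs holds another, and a match is a description only.

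Of the 319 regions, accessibility in Chd3/4Δβ was higher at 110 (34.5%), lower at 71 (22.3%) and neither at 138. Over all 61288 listed regions, every one of which the authors had called different, 37% were higher and 20.4% lower, so the members' shares lay near the background. The median log2 fold change was 0.43 over the members and 0.56 over all listed regions. Without the fold threshold 163 members were higher and 151 lower (background 52.6% and 44.9%). A gain of at least 4-fold was seen in 44 member regions (background 17.9% of listed regions) and a loss of that size in 13 (background 2.87%). All 3 Chd3/4Δβ libraries lay above all 4 Control libraries in 148 regions and below them in 131 (background 49.3% and 38.8%). The balance of the calls depended on the scaling, with 89 higher and 100 lower under TMM factors, 81 and 119 under RLE factors, and 64 and 96 under cyclic loess. Over all listed regions these scalings gave 19363 higher and 17086 lower, 17972 and 19441, and 14012 and 15692, respectively. They moved the median of all listed regions from 0.56 to 0.35, 0.25 and 0.14.

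The gained regions spanned a wide range of levels in Control. The median level of the 110 gained regions was 0.883 CPM in Control (0.123 to 16.5) and 3.75 CPM in Chd3/4Δβ, where all 22692 listed gains had medians of 0.78 and 3.44 CPM. The 71 lost regions went from a median of 2.75 (1.09 to 16.3) to 0.968 CPM, where all 12512 listed losses went from 2.71 to 0.993 CPM. These levels helped to make the calls and are a description only. Chd3/4Δβ replicate 3 was the library nearest to Control in 66 of the gained and 46 of the lost regions, replicate 1 in 20 and 11, and replicate 2 in 24 and 14.

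**Figure D1:**
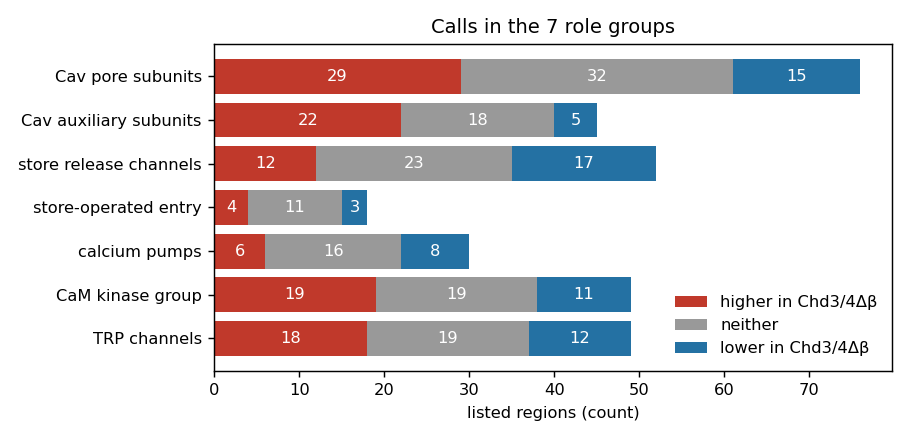
Number of listed regions called higher (red), neither (grey) or lower (blue) in Chd3/4Δβ for each of 7 groups of genes. The auxiliary subunits of voltage-gated channels had 22 gains and 5 losses, and the store release channels had 12 gains and 17 losses.

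The background for the counts by gene group is 37% higher and 20.4% lower over all listed regions. Losses were also the larger number over all listed regions under RLE and loess. Across the role groups, gains outnumbered losses for the auxiliary subunits (22 higher, 5 lower of 45 regions, 48.9% and 11.1%) under each scaling. The counts were 17 and 8 under TMM, 16 and 13 under RLE and 11 and 7 under loess. The pore subunits had 29 higher and 15 lower of 76 regions (38.2% and 19.7%), near the background. Their balance turned to 19 and 26 under RLE and 15 and 22 under loess. Losses outnumbered gains for the store release channels (12 higher, 17 lower of 52) and the pumps (6 higher, 8 lower of 30), and did so under each of the 3 scalings. In the 4 libraries under 30 M alone, which leave Chd3/4Δβ with 1 library assumed to vary like the others, the store release channels had 10 higher and 9 lower and the pumps 6 and 5, and the pumps had 6 and 5 without Control replicate 3. The calmodulin kinase group had 19 higher and 11 lower of 49 (38.8% and 22.4%), near the background. These counts became 15 and 16 under RLE and 13 and 13 under loess. The TRP channels had 18 higher and 12 lower of 49 (36.7% and 24.5%), near the background, and losses were the larger number under all 3 scalings. Store-operated entry had 4 higher and 3 lower of 18 regions (22.2% and 16.7%), and losses were the larger number under RLE and loess.

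Among the pores of voltage-gated channels, most regions of the R-type and T-type genes gained accessibility. The background for the counts by subfamily, here and below, is 37% higher and 20.4% lower over all listed regions. Under TMM, RLE and loess all listed regions gave 19363 higher and 17086 lower, 17972 and 19441, and 14012 and 15692. Cacna1e, the R-type pore, had 4 listed regions and all 4 were higher. The T-type pores, which open at low voltage, had 14 regions, of which 12 were higher and 0 lower (5 of 5 in Cacna1h, 4 of 5 in Cacna1g, 3 of 4 in Cacna1i). The most open T-type region was not among the gains. It lay outside the RefSeq body of Cacna1g, 4293 bases from the nearest annotated transcript start (chromosome 11, 94406698 to 94408074). Its levels were 28.7, 34.9, 30.3 and 26.7 CPM in Control and 22.4, 18.5 and 19.2 CPM in Chd3/4Δβ. The groups were separate, with a log2 fold change of -0.59 (SE 0.132, adjusted p = 0.000688), short of the fold threshold. The T-type counts were 10 higher and 0 lower under TMM, 8 and 0 under RLE and 6 and 0 under loess, and Cacna1e had 3 and 0 under each. In the 4 libraries under 30 M the T-type count was 7 and 0. The L-type and P/Q-type pores had 13 higher and 15 lower of 58 regions. This split of the pores was chosen after the values were seen, and the difference between the sets was not tested.

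The most open of the gained Cacna1e regions was an intron region on chromosome 1 at 154500344 to 154501178. Its levels were 3.01, 2.06, 3.11 and 3.61 CPM in Control and 26.8, 22.4 and 25.1 CPM in Chd3/4Δβ, groups that do not overlap (log2 fold change 3.05, SE 0.181, adjusted p = 1.26e-11). A region 29676 bases from the Cacna1e start (chromosome 1, 154913985 to 154914369) held 0.0567, 0.163, 0.239 and 0.236 CPM in Control, where the lowest value stands for 1 count, and 7.09, 7.24 and 5.01 CPM in Chd3/4Δβ. It was close to silent in every Control library (log2 fold change 5.08, SE 0.328, adjusted p = 4.17e-11). In Cacna1h, an intron region at 25418744 to 25419487 of chromosome 17 had 2.04, 2.22, 1.86 and 1.63 CPM in Control and 16.5, 16.7 and 9.73 CPM in Chd3/4Δβ (log2 fold change 2.91, SE 0.216, adjusted p = 3.03e-10). Chd3/4Δβ replicate 3 was the lowest of its group there and still above every Control library. The largest gain of Cacna1g, 1769 bases from its start, rose from 0.887 ± 0.373 CPM (SD, n = 4) to 5.13 ± 1.56 CPM (SD, n = 3; log2 fold change 2.58, adjusted p = 2.61e-07 by edgeR).

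The L-type pores had more losses than gains, where 37% of all listed regions were higher and 20.4% lower. Cacna1c had 3 regions higher, 5 lower and 8 neither, and Cacna1d had 4, 6 and 9. With Cacna1s, whose 1 region was neither, the L-type pores had 7 higher and 11 lower, and 4 and 13, 4 and 18, and 3 and 14 under TMM, RLE and loess. In the 3 libraries over 30 M, which leave Control with 1 library assumed to vary like the others, they had 9 and 9. An internal Cacna1c promoter (chromosome 6, 118706581 to 118707800) had 17.5, 15.6, 18.4 and 13.9 CPM in Control and 6.88, 7.0 and 7.2 CPM in Chd3/4Δβ. All 3 Chd3/4Δβ libraries lay below the lowest Control library (log2 fold change -1.22, SE 0.163, adjusted p = 1.68e-06). At the RefSeq start of Cacna1c, whose sequence is given above, the levels were 52.9, 49.8, 54.4 and 56.1 CPM against 34.8, 37.1 and 36.5 CPM. The groups were separate there too, but the log2 fold change of -0.56 (SE 0.104, adjusted p = 9.4e-05) did not reach the fold threshold.

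Cacna1c also held a large gain inside an intron (chromosome 6, 119012477 to 119012927), from 0.277 ± 0.0932 CPM (SD, n = 4) to 3.04 ± 1.13 CPM (SD, n = 3; log2 fold change 3.42, adjusted p = 8.36e-08 by edgeR). In Cacna1d an intron region at 30113275 to 30114154 of chromosome 14 had 11.3, 10.8, 10.5 and 9.35 CPM in Control and 2.93, 2.0 and 5.35 CPM in Chd3/4Δβ. Replicate 3 retained the most accessibility of the Chd3/4Δβ libraries (log2 fold change -1.67, SE 0.245, adjusted p = 6.6e-06). Around the RefSeq start of Cacna1d the promoter went from a mean of 44.5 to 35.8 CPM (log2 fold change -0.31).

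Cacna1a, the P/Q-type pore and the member with the most listed regions, had 6 higher, 4 lower and 12 neither, 4 higher and 7 lower under TMM, and 4 and 6 without Chd3/4Δβ replicate 1. An intron region (chromosome 8, 84445968 to 84447254) had 7.32, 11.2, 10.5 and 8.88 CPM in Control and 2.14, 2.03 and 2.31 CPM in Chd3/4Δβ (log2 fold change -2.14, SE 0.211, adjusted p = 2.25e-08). The Chd3/4Δβ libraries were close together and the groups were far apart. Outside the gene, 16466 bases from its start, a region rose from 1.04 ± 0.364 CPM (SD, n = 4) to 7.21 ± 1.03 CPM (SD, n = 3; log2 fold change 2.8, adjusted p = 5.68e-09 by edgeR).

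**Figure D2:**
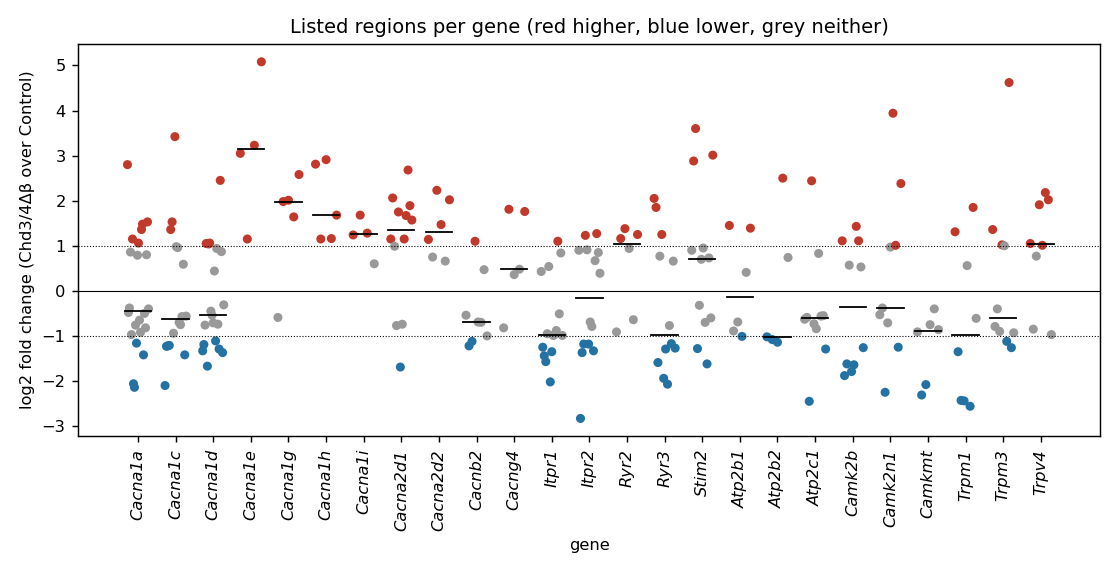
Log2 fold change (Chd3/4Δβ over Control) of every listed region of the member genes with 5 or more regions and of Cacna1e and Cacna1i, ordered along each gene. Short lines are medians and dotted lines the fold threshold. Regions of Cacna1e and Cacna1h are all red, whereas Cacna1a, Cacna1c, Cacna1d, Ryr3 and Camk2b hold red and blue points.

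Auxiliary subunits bring the pores to the membrane and set their gating. The α2δ genes had 14 regions higher and 2 lower of 23 (background 37% and 20.4%). The counts were 10 and 2, 10 and 5, and 8 and 2 under TMM, RLE and loess. Cacna2d1, which encodes the α2δ subunit best known in β cells, accounted for 8 of the gains, 1 loss and 3 regions that were neither. A Cacna2d1 intron region (chromosome 5, 16041148 to 16042206) had 2.1, 2.6, 1.96 and 2.83 CPM in Control and 8.72, 10.8 and 10.6 CPM in Chd3/4Δβ, with a log2 fold change of 2.06 (SE 0.201, adjusted p = 1.96e-08). Every Chd3/4Δβ library was above every Control library there.

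Cacna2d2 gained at both of its listed promoters. At the RefSeq start (chromosome 9, 107399445 to 107400509) the levels were 4.42, 5.59, 5.83 and 4.9 CPM in Control and 14.5, 18 and 10.4 CPM in Chd3/4Δβ (log2 fold change 1.47, SE 0.189, adjusted p = 9.51e-07). At the other start (chromosome 9, 107525862 to 107527302) they were 5.16, 5.43, 4.54 and 3.02 CPM against 22.1, 19.9 and 12 CPM (log2 fold change 2.02, SE 0.217, adjusted p = 9.79e-08). Replicate 3 was the lowest Chd3/4Δβ library at both, and the groups did not overlap. In the libraries under 30 M the log2 fold change at the RefSeq start was 0.97, short of the fold threshold.

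The β subunits, which bind the pore from the cytosol, differed from gene to gene. Cacnb1 had 2 of 2 regions higher and Cacnb3 1 of 1, whereas Cacnb2 had 1 higher, 2 lower and 5 neither. A Cacnb1 exon region (chromosome 11, 98005019 to 98005588) had 0.737, 0.705, 1.48 and 0.259 CPM in Control and 16.8, 16.1 and 10.2 CPM in Chd3/4Δβ (log2 fold change 4.29, SE 0.353, adjusted p = 3.97e-08). The Cacnb3 region, annotated at the end of a transcript inside the gene (chromosome 15, 98640072 to 98640573), had 2.44, 2.5, 2.44 and 1.44 CPM against 11.8, 10.5 and 9.4 CPM (log2 fold change 2.3, SE 0.215, adjusted p = 1.04e-08). Both were well separated between the groups.

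Cacnb2 encodes a β subunit expressed in β cells. The promoter at its RefSeq start, printed above, went from a mean of 61.9 to 42.8 CPM (log2 fold change -0.54). An internal promoter (chromosome 2, 14762727 to 14763620) had 3.86, 4.56, 5.12 and 5.89 CPM in Control and 1.36, 2.39 and 2.7 CPM in Chd3/4Δβ (log2 fold change -1.22, SE 0.256, adjusted p = 0.000364). All Chd3/4Δβ libraries were below all Control libraries, but the call was lost without Chd3/4Δβ replicate 1 (-0.96) and in the libraries under 30 M (-0.74, adjusted p = 0.0547). The promoter of Cacng5, a γ subunit gene, was called higher (log2 fold change 1.21, adjusted p = 0.000611) although its groups overlapped, with Chd3/4Δβ replicate 3 at 3.32 CPM and Control replicate 2 at 3.91 CPM. The call was lost in 5 settings, with 0.89 under RLE, 0.95 under loess, 0.95 with a term for depth, 0.99 without Chd3/4Δβ replicate 1 and 0.17 (adjusted p = 1.0 by edgeR) in the libraries under 30 M.

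The IP3 receptors, which release stored calcium after receptor signals, had more losses than gains. Of their 32 regions 4 were higher and 11 lower (background 37% and 20.4%). The counts were 3 and 17, 1 and 17, and 2 and 14 under TMM, RLE and loess. Itpr1 had 1 higher, 5 lower and 9 neither, and Itpr2 had 2, 5 and 7. An Itpr1 intron region (chromosome 6, 108277667 to 108278552) had 5.05, 4.67, 5.21 and 5.28 CPM in Control and 1.91, 1.49 and 2.31 CPM in Chd3/4Δβ (log2 fold change -1.44, SE 0.23, adjusted p = 1.74e-05). The spread within each group was small beside the gap between them.

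Itpr3 showed a different picture at an internal promoter (chromosome 17, 27105282 to 27106448). It had 1.93, 0.705, 0.478 and 0.683 CPM in Control and 23.9, 22.6 and 15.5 CPM in Chd3/4Δβ (log2 fold change 4.52, SE 0.301, adjusted p = 9.78e-10). Control replicate 1 was the highest of its group and still far below every Chd3/4Δβ library. An intron region 40600 bases away in Itpr3 fell from 4.93 ± 0.594 CPM (SD, n = 4) to 2.1 ± 0.234 CPM (SD, n = 3; log2 fold change -1.22, adjusted p = 8.45e-05 by edgeR).

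Ryanodine receptors open in response to calcium itself, and Ryr1, Ryr2 and Ryr3 are best known in skeletal muscle, heart and brain, respectively. Together they had 8 regions higher and 6 lower of 20 (background 37% and 20.4%). This balance was 8 and 8 without Chd3/4Δβ replicate 3 and turned to 5 and 8 under RLE. Ryr1 had 2 of 2 higher, Ryr2 had 3 higher and 0 lower of 6, and Ryr3 had 3 higher and 6 lower of 12. The Ryr2 promoter (chromosome 13, 12105531 to 12107278) had 4.03, 6.13, 5.4 and 7.73 CPM in Control and 13, 18.2 and 10.7 CPM in Chd3/4Δβ (log2 fold change 1.25, SE 0.208, adjusted p = 2.68e-05). The groups did not overlap, and under RLE factors the log2 fold change was 0.93. The Ryr1 promoter (chromosome 7, 29124937 to 29125433) had 1.08, 0.868, 2.06 and 1.13 CPM against 4.11, 4.39 and 3.49 CPM, again without overlap (log2 fold change 1.64, SE 0.278, adjusted p = 3.39e-05). The strongest Ryr3 loss among the named regions, in an intron, went from 4.42 ± 0.461 CPM (SD, n = 4) to 1.07 ± 0.552 CPM (SD, n = 3; log2 fold change -2.07, adjusted p = 8.2e-06 by edgeR).

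For store-operated entry, Stim1 had 1 region higher of 4, Stim2 had 3 higher and 2 lower of 12, and the 1 listed region of Orai2 was lower. A region 36217 bases from the start of Stim2 (chromosome 5, 53961971 to 53962594) had 1.25, 1.68, 1.1 and 1.89 CPM in Control and 10.6, 11 and 12.1 CPM in Chd3/4Δβ (log2 fold change 2.88, SE 0.214, adjusted p = 3.24e-10). Chd3/4Δβ replicate 3 was the highest library here, unlike at most gains. The Orai2 intron region went from 3.33 ± 1.12 CPM (SD, n = 4) to 0.968 ± 0.426 CPM (SD, n = 3; log2 fold change -1.78, adjusted p = 0.000188 by edgeR). In the 3 libraries over 30 M alone it was not called (adjusted p = 0.0688).

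Pumps that refill or empty the cell's calcium pools had few gains, and 1 of these was among the largest of the set. SERCA genes, which fill the endoplasmic reticulum, had 1 region lower (Atp2a3) and 3 neither of 4, and the 1 region of Atp2a2 had a log2 fold change of -0.42. The promoter of Atp2b4, a plasma membrane calcium pump, had 0.511, 0.326, 0.383 and 0.401 CPM in Control and 8.93, 10.6 and 8.44 CPM in Chd3/4Δβ (chromosome 1, 133753308 to 133754016). It was nearly closed in every Control library and open in every Chd3/4Δβ library, a 23.0-fold difference of the means (log2 fold change 4.52, SE 0.253, adjusted p = 5.28e-12). Its window printed above has 2 CG dinucleotides and none of the 3 motifs, against a median of 22 CG dinucleotides over the 22 windows.

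The ubiquitous plasma membrane pump gene Atp2b1 had 2 regions higher, 1 lower and 3 neither. The larger gain lay 16353 bases from its start and went from 5.19 ± 1.07 CPM (SD, n = 4) to 14.2 ± 1.4 CPM (SD, n = 3; log2 fold change 1.45, adjusted p = 7.21e-07 by edgeR). Its loss, in an intron, had overlapping groups (3.05 against 1.6 CPM, log2 fold change -1.01), and the call was lost on leaving out Control replicate 3 (-0.9), Control replicate 4 (-0.96), Chd3/4Δβ replicate 1 (-0.89) or Chd3/4Δβ replicate 2 (-0.76). Atp2b2 had 1 region higher and 3 lower of 5. Its loss at 113907861 to 113908541 of chromosome 6 (log2 fold change -1.14) also fell short of the threshold when Control replicate 2 (-0.98) or Chd3/4Δβ replicate 1 (-0.95) was left out. Atp2c1, the pump of the Golgi, had 1 higher, 2 lower and 7 neither of 10.

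**Figure D3:**
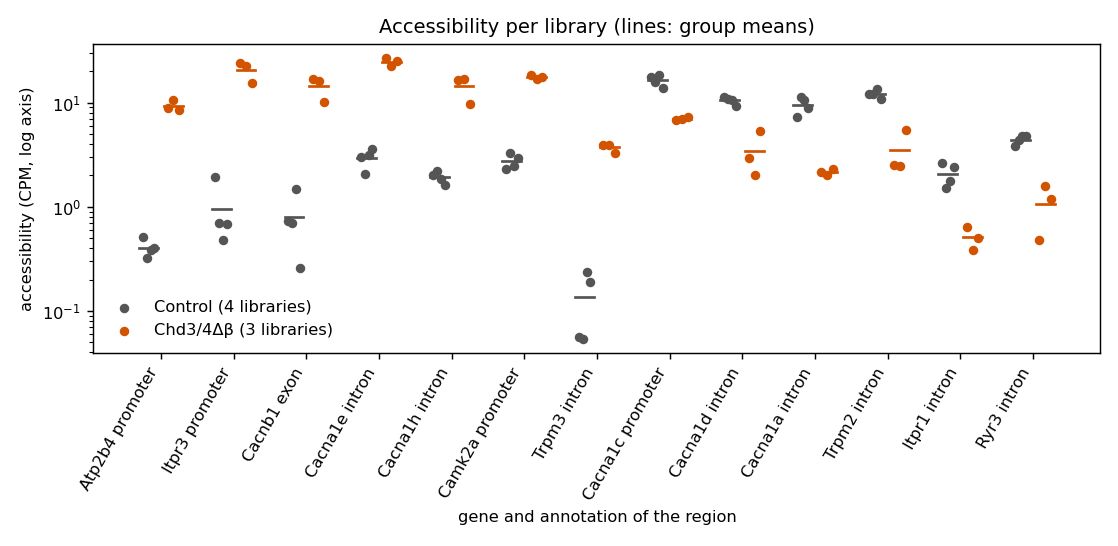
Accessibility in CPM on a log axis for 13 regions, with 1 point per library (grey, 4 Control; orange, 3 Chd3/4Δβ) and lines at the group means. The first 7 regions gained accessibility and the last 6 lost it, and in each of the 13 the groups are separate.

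Calmodulin kinase II, the main calcium-reading kinase of β cells and neurons, has 4 subunit genes. They had 11 regions higher and 6 lower of 21 (background 37% and 20.4%), and 9 and 6, 8 and 6, and 7 and 6 under TMM, RLE and loess. Camk2a, the subunit best known in neurons, had 3 of 3 regions higher, Camk2d 3 of 4, Camk2g 2 higher and 1 lower of 4, and Camk2b 3 higher and 5 lower of 10. The Camk2a promoter (chromosome 18, 60925078 to 60925983) had 2.33, 3.31, 2.49 and 2.95 CPM in Control and 18.6, 16.7 and 17.6 CPM in Chd3/4Δβ (log2 fold change 2.67, SE 0.177, adjusted p = 6.34e-11). Libraries were tight within both groups.

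Camk2b, a subunit that β cells express, showed both directions. An internal promoter (chromosome 11, 6000203 to 6001025) had 9.47, 7.22, 8.22 and 9.57 CPM in Control and 21, 18.6 and 16.1 CPM in Chd3/4Δβ (log2 fold change 1.11, SE 0.161, adjusted p = 4.81e-06). An intron region at 6005492 to 6008080 had 7.54, 8.25, 9.47 and 11.6 CPM against 2.48, 3.69 and 1.07 CPM (log2 fold change -1.88, SE 0.274, adjusted p = 8e-06). Neither had overlapping groups, and the gain fell under the fold threshold with TMM (0.9) and RLE factors (0.79).

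The Camk symbols also take in genes that are not kinases. Of such genes, Camk2n1 and Camkmt hold 15 of the 49 regions of the group, and the other 34 had 16 higher and 7 lower. These 34 were not sorted further by kinase activity and include the called gain of Camkv. Camk2n1, which encodes an inhibitor of calmodulin kinase II, was listed with 3 higher, 2 lower and 4 neither. Its largest gain, 45771 bases from the start, had 0.624, 0.163, 0.478 and 0.283 CPM in Control and 7.09, 6.18 and 3.83 CPM in Chd3/4Δβ (log2 fold change 3.94, SE 0.335, adjusted p = 2.46e-09). The upstream kinase gene Camkk2 gained at an internal promoter, from 2.11 ± 0.893 CPM (SD, n = 4) to 7.87 ± 2.43 CPM (SD, n = 3; log2 fold change 1.94, adjusted p = 3.38e-06 by edgeR), while the promoter at its RefSeq start had a log2 fold change of -0.48. Camkmt, a methyltransferase of calmodulin, had 0 higher, 2 lower and 4 neither of 6 regions.

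TRP channels pass cations, in many cases calcium, in answer to heat, oxidants, lipids or calcium. The TRPM genes had 10 regions higher and 9 lower of 30 (background 37% and 20.4%), and 9 and 13 under TMM. The TRPV genes had 6 and 0 of 10, and 4 and 2 under TMM and RLE and 2 and 2 under loess. Trpm2, a channel opened by ADP-ribose that is expressed in β cells, had 2 regions higher and 1 lower. Its lost intron region (chromosome 10, 77960635 to 77961235) had 12.2, 12.2, 13.4 and 10.9 CPM in Control and 2.54, 2.49 and 5.46 CPM in Chd3/4Δβ (log2 fold change -1.86, SE 0.234, adjusted p = 7.33e-07). Replicate 3 again kept the most accessibility. An internal promoter of Trpm2 had 0.567, 0.705, 0.335 and 0.754 CPM against 3.25, 4.03 and 3.15 CPM (log2 fold change 2.52, SE 0.302, adjusted p = 3.69e-07).

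Trpm3, a steroid-sensitive channel of β cells, had 3 higher, 2 lower and 5 neither. An intron region (chromosome 19, 22785657 to 22786042) had 0.0567, 0.0543, 0.239 and 0.189 CPM in Control, the first and the second standing for 1 count each, and 3.88, 3.95 and 3.32 CPM in Chd3/4Δβ (log2 fold change 4.62, SE 0.378, adjusted p = 1.39e-09). Every Control library was far below every Chd3/4Δβ library. Trpm4, a channel that calcium opens and that passes sodium and potassium, had 2 higher and 0 lower of 3. Trpv4, a channel that responds to cell swelling, had 5 higher and 0 lower of 8, and 5 of the 8 regions lay outside the gene body. The promoter at the RefSeq start of Trpv4 went from a mean of 1.34 to 0.639 CPM (log2 fold change -0.97, adjusted p = 0.0166 by edgeR), short of the fold threshold. Trpm1, best known in retina and melanocytes, had 2 higher and 4 lower of 8. The promoter of Trpm6, a magnesium-permeable channel gene, was called lower (log2 fold change -1.11, adjusted p = 0.0104), but the call was lost without Control replicate 4 (-0.73, adjusted p = 0.0876) or Chd3/4Δβ replicate 1 (-0.9, adjusted p = 0.0539) and in the libraries under 30 M (-0.62, adjusted p = 0.45). Trpc1 had 1 region lower and 1 neither. The lower region was annotated to the start of a Trpc1 transcript, but no RefSeq window of Trpc1 was among the 22 overlapped. In the libraries under 30 M its log2 fold change fell short of the fold threshold (-0.82).

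By annotation class, 14 of 38 member promoters were higher and 5 lower, where 22.1% and 8.94% of all listed promoter regions were. The member introns had 60 higher and 54 lower of 203 (background 35% and 24%), the intergenic regions 28 and 8 of 54 (background 46.9% and 18.5%), the exons 6 and 2 of 17 (background 27.6% and 19.7%), and the regions at transcript ends 2 and 2 of 7 (background 34.1% and 24.7%). The differences from the background were not tested. Of the 319 regions, 255 lay inside the body of their gene as RefSeq gives it. A further 156 listed regions inside these bodies carry the symbol of another gene, of which 57 were higher and 27 lower, and they are not counted above.

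Promoters were divided at 20 CPM in Control. The 9 member promoters at 20 CPM or more in Control had log2 fold changes from -0.61 to 0.56, and 0 were called, where 0.0704% of the 2839 listed promoters at that level were higher and 0.669% lower. The 29 below that level had 14 gains and 5 losses, with log2 fold changes from -1.56 to 4.52, where 38.5% of 3804 listed promoters were higher and 15.1% lower. Such a split was also seen over all listed promoters. This level was chosen after the values were seen, and the contrast was not tested.

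**Figure D4:**
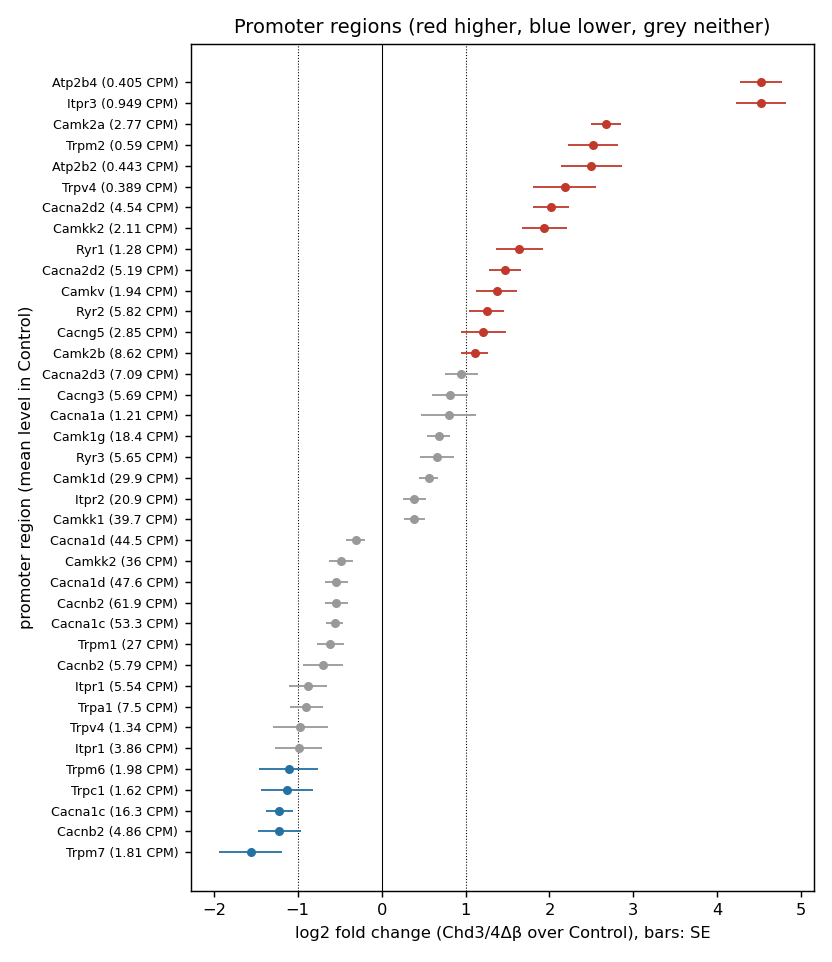
Log2 fold change (Chd3/4Δβ over Control) with its SE for the 38 member promoter regions, with the mean CPM in Control beside each gene. Gains (red) reach 4.52 at Atp2b4 and Itpr3, the lowest loss (blue) is -1.56 at Trpm7, and promoters at 20 CPM or more lie between the dotted lines of the fold threshold.

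Gains and losses often lay in the same gene. Of the 62 genes, 22 (35.5%) had regions called in both directions, 25 had gains alone, 9 had losses alone and 6 had no call. Over all 24453 symbols 15.3% had both, but the members had a median of 3 regions per gene against 2 over all, and the difference was not tested. Between the nearest gain and loss of these 22 genes lay a median of 11148 bases, and in 9 genes fewer than 10000.

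The closest pair lay in introns of Atp2c1 on chromosome 9, 870 bases apart. The region at 105467894 to 105468230 had 0.397, 0.271, 0.287 and 0.33 CPM in Control and 1.66, 2.46 and 1.01 CPM in Chd3/4Δβ (log2 fold change 2.44, adjusted p = 6.64e-06). Its neighbour at 105466072 to 105467023 had 3.12, 2.98, 3.25 and 2.38 CPM against 0.363, 0.539 and 0.788 CPM (log2 fold change -2.45, adjusted p = 1.5e-06). The groups were separate at both, in opposite directions, and the gain was not called under cyclic loess (0.32). The Trpm2 loss described above had a gain 1734 bases away (log2 fold change 1.82, adjusted p = 2.13e-05), where the Control libraries had 0.651 to 1.25 CPM and the Chd3/4Δβ libraries 2.59 to 3.02 CPM. In Itpr2 the gap was 2000 bases (log2 fold changes 1.23 and -1.18), in Atp2b2 it was 2518 (2.5 and -1.14) and in Camk2n1 it was 2863 (2.38 and -1.25).

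**Figure D5:**
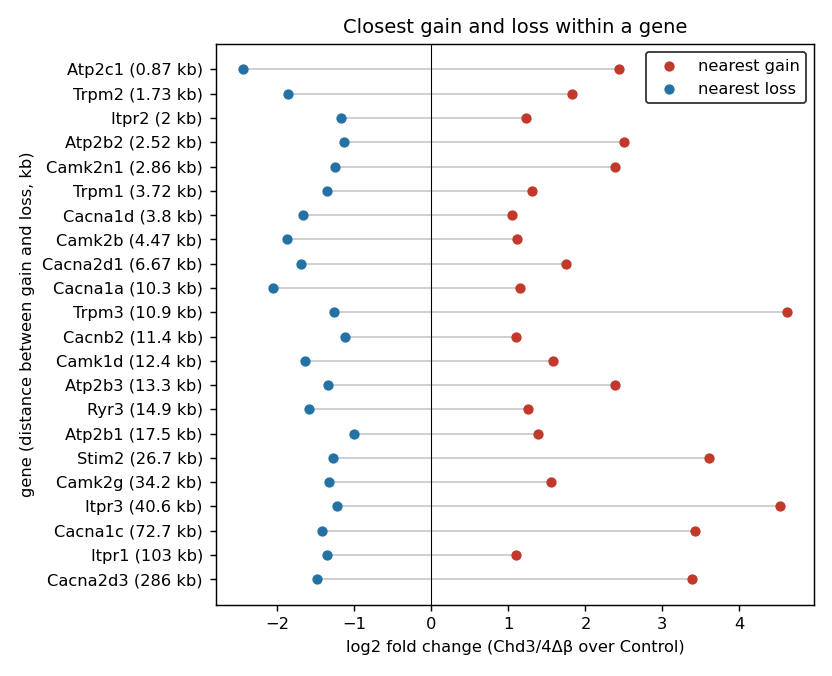
Log2 fold changes of the closest gain (red) and loss (blue) within each of the 22 member genes that had both, ordered by the distance between them, which is written beside the gene in kb. The pair in Atp2c1, at 2.44 and -2.45, is the closest, and the pair in Cacna2d3 the farthest.

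Related calcium genes outside the member symbols were also called in both directions. Of 71 genes on a list of calcium buffers, exchangers, mitochondrial uniporter subunits, calcineurin and its targets, 58 had 203 listed regions. Of these regions 61 were higher, 43 lower and 99 neither, with a median log2 fold change of -0.28 (0.56 over all listed regions). Losses made up 21.2%, near the background of 20.4%, and the share of gains lay below the background of 37%. These differences, and those of the single genes that follow, were not tested. Mcu, the pore of the mitochondrial calcium uniporter, had 2 higher and 4 lower of 8 regions, and Micu2, which encodes a gatekeeper of it, 1 and 4 of 5. Rcan2, a regulator of calcineurin, had 7 higher and 2 lower of 17, and Ncs1, a neuronal calcium sensor, 4 and 0 of 5.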

How the data were processed

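ATAC-seq of Tomato-positive β cells gave 4 Control and 3 Chd3/4Δβ libraries. The authors deposited whole-number read counts per region and library on a merged region set, and the same deposited table gives CPM scaled by library size. The aligner, peak caller, counting tool and Tn5 cut-site shift are not given in the sources used here. Per the labels, fragments over 600 bp were excluded. The lowest deposited count is 1 and none is 0, so either 1 was added or regions with a 0 were left out, and this was not settled. The deposited p-value and FDR columns were used to derive the 109675 regions that the authors tested; 61288 of them (55.9%), those they called, are in the table. Their fold changes and test statistics were not used, and regions they did not call are not analysed here. The labels name GRCm39, but 3227 of 4494 promoter regions (71.8%) overlap the RefSeq GRCm38.p6 promoter window of their gene, so coordinates were taken to be GRCm38, with no conversion. Symbols and classes (promoter, exon, intron) follow the deposited annotation, where the nearest start site names a region. Distances are to that start site, which for some regions is not the RefSeq start of the gene. The deletion of Chd3 and Chd4 was not checked in these libraries.

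The test of the counts was that of edgeR 4.0.16 under R 4.3.3 (quasi-likelihood, robust, no block, library sizes implied by the deposited CPM), with Benjamini-Hochberg adjustment over the 109675 regions. Counting error alone is smallest in the 3 libraries over 30 M. The script was tested on simulated data. Groups come from the titles. Column names give Control replicates 1 to 3 the same lane tag and Chd3/4Δβ replicate 3 a different one. The remaining Control library and the other Chd3/4Δβ libraries have no lane tag. No lane tag occurs in both groups, and every Control column name begins with a prefix that no Chd3/4Δβ column name has. Whether the tags or the prefix mark sequencing runs is not stated, and an effect of run was not tested. Where a run follows the groups, its effect and that of the deletion cannot be told apart. Deviations of same-numbered libraries correlated at 0.0677, -0.0312 and -0.016, so the numbers were not taken as pairs. Alternatives were TMM, RLE and cyclic loess (limma 3.58.1), DESeq2 1.42.0, a filter at a mean of 1 CPM, other thresholds, a replicate block, a depth term and each library left out. The fits to the libraries over and under 30 M were chosen after seeing the data. Members and lists were chosen with earlier results of these data known.

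Regions named were, per role group, the 3 largest gains and losses with a mean of at least 2 CPM and groups that do not overlap, every called promoter, and the largest gain and loss of genes with 5 or more regions and of genes known in β cells. These come to 86 regions of 46 genes, of which examples are printed. Regions of the closest pairs of gain and loss were added afterwards. Some genes are not reported here.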

Additional observations from a re-analysis of the deposited data

Results flagged for a closer look

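In 8 of the named regions, 1 Control library stood apart from the other 3 by more than Dixon's critical value for 4 samples, which chance gives in about 1 of 20 groups. Control replicate 1 was high at the Itpr3 promoter (1.93 CPM, the others 0.478 to 0.705) and at the Stim2 intergenic region 5658 bases from the start (6.07 CPM, the others 5.26 to 5.37). It was low at the Ryr3 intron region 70995 bases from the nearest annotated transcript start (0.227 CPM, the others 0.707 to 0.76). Control replicate 2 was low at the Camkmt intron region (1.19 CPM, the others 2.16 to 2.36) and at the Trpm1 region by the end of a transcript (1.3 CPM, the others 1.87 to 1.96). Control replicate 3 was low at the Trpm4 intron region (0.287 CPM, the others 0.754 to 0.814) and high at the Atp2c1 intergenic region (5.83 CPM, the others 3.47 to 3.86). Control replicate 4 was low at the Cacnb3 region (1.44 CPM, the others 2.44 to 2.5). In each of the 8 the Chd3/4Δβ libraries still lay beyond all 4 Control libraries.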

How the results depend on the processing

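Of the 86 named regions, 59 kept their call and 85 their direction in every setting that gave them a value (6 regions had none with the filter at 1 CPM). The exception was the Ryr2 intron gain at 11790356 to 11790884 of chromosome 13, which was -0.04 under cyclic loess. With RLE factors the counts became 119 lower over all members, 19 higher and 26 lower for pores, 13 lower for auxiliary subunits, 6 higher for store release, 5 lower for store-operated entry, 14 lower for pumps and 20 lower for TRP channels. With TMM, auxiliary subunits had 8 and TRP channels 20 lower. Under loess the higher counts were 64 over all members, 15 for pores, 11 for auxiliary subunits, 7 for store release and 10 for TRP channels. Without a fold threshold 151 members were lower, with 35 for pores, 14 for auxiliary subunits, 29 for store release (21 higher), 8 for store-operated entry (9 higher), 19 for pumps (11 higher), 22 for calmodulin kinases and 24 for TRP channels. The deep libraries gave 10 lower auxiliary regions. The shallow ones gave 2, and 9 lower for store release and 5 for pumps.

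Leaving out 1 library gave 105 to 114 higher and 65 to 84 lower members. The lower counts ranged from 2 (without Chd3/4Δβ replicate 1) to 7 for auxiliary subunits and from 5 (without Control replicate 3) to 9 for pumps. The replicate block gave 110 higher and 71 lower, and 4 named losses were not called with it. These were the Trpc1 region at a transcript start, the Trpm6 promoter, an Atp2b1 intron region and an exon region. The exon region carries the Cacnb4 symbol but lies outside its RefSeq body. Same-numbered libraries did not all correlate best with each other, and Control replicate 4 drops out of the contrast. The listed regions hold 8.62 to 21.8 M counts per library, and 14 calls lay within 0.1 of the fold threshold. On the other side of it, 25 member regions fell short by no more than 0.1.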
